A study of Mus musculus with 48 samples.

Results

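The 9 genes B2m, H2-K1, H2-D1, Ifit1, Ifit3, Irf7, Ifitm3, Bst2 and Oasl2, which belong to the interferon response and to MHC class I antigen presentation, were followed mouse by mouse in the cerebral cortex. They were chosen by symbol, and all 9 of them were found among the 24444 genes of the expression table. RNA-seq had been performed on cortex from 48 male C57BL/6J mice, 6 WT and 6 heterozygous mice at each of E14.5 (embryonic day 14.5), 1 month, 6 months and 12 months. The heterozygous mice (Chd8 V986*/+, called HET) carry 1 allele of the chromatin remodeler Chd8 with tandem stop codons inserted by CRISPR/Cas9, and the line descends from a single male founder backcrossed to C57BL/6J. WT littermates were the controls, no other allele or treatment was given to either genotype, and 1 hemisphere per mouse was taken, so each value belongs to a separate mouse.

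Type I interferons bind the receptor made of Ifnar1 and Ifnar2, and the kinases Jak1 and Tyk2 then pass the signal on. Antiviral genes are switched on through a DNA element named the interferon-stimulated response element. MHC class I molecules display peptides from inside the cell to cytotoxic T cells, and interferons raise their level. In the healthy brain both systems are known to be low in most neurons and higher in microglia and in cells of blood vessels and meninges.

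The genes fall into 3 roles, and their positions are given in mm9, the build of the authors' alignment, from the GENCODE M1 annotation. MHC class I is encoded by B2m, the invariant light chain (chr2:121973422-121978819, plus strand, 4 exons in the longest transcript), and the classical heavy chains H2-K1 (chr17:34132962-34137278, minus strand, 8 exons) and H2-D1 (chr17:35399675-35404444, plus strand, 8 exons). Cytosolic antiviral effectors are encoded by Ifit1 (chr19:34715361-34724499, plus strand, 2 exons) and Ifit3 (chr19:34658021-34663221, plus strand, 2 exons), which act on foreign RNA, and Oasl2 (chr5:115346943-115362243, plus strand, 7 exons), a member of the oligoadenylate synthetase family. The others are Irf7, the transcription factor that amplifies type I interferon production (chr7:148448605-148452380, minus strand, 10 exons), Ifitm3, a membrane protein that blocks viral entry (chr7:148195485-148196669, minus strand, 2 exons), and Bst2, or tetherin, which holds budding virus at the cell surface (chr8:74058163-74061336, minus strand, 5 exons).

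Of the 9 genes, 6 carry a short motif for immune transcription factors within 250 bases before the start of transcription given by RefSeq. The promoter windows of all 9 genes were found in the RefSeq table (build GRCm38.p6) and located in mm9 by exact match. The letters searched, on both strands, were TTTCNNTTTC (core of the interferon-stimulated response element) and GGGNNTTCCC (a kappaB site, bound by the NF-kappaB family), which were present in 2.98% and 1.53% of all 32851 promoter windows of that length. The stretches below are shown because they hold these matches in the genes described next, with matches to the response element core and the kappaB site in capitals, read along the strand of the gene.
Ifit1 (chr19:34715265-34715313, mm9, plus strand): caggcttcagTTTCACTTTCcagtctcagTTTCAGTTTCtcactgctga
Ifit3 (chr19:34657853-34657916, mm9, plus strand): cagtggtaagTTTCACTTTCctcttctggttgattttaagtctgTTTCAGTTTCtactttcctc
Bst2 (chr8:74061476-74061511, mm9, minus strand): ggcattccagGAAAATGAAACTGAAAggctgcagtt
B2m (chr2:121973274-121973303, mm9, plus strand): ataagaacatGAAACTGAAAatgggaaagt
H2-K1 (chr17:34137384-34137413, mm9, minus strand): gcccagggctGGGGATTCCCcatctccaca
H2-D1 (chr17:35399858-35399887, mm9, plus strand): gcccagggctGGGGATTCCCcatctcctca

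Ifit1 and Ifit3 each held 2 separate copies of the response element core. Bst2 held 2 copies that overlap each other. B2m held 1 copy, and H2-K1 and H2-D1 each held 1 kappaB site in the same 10 bases. The H2-D1 stretch lies inside the gene as annotated in GENCODE M1, which starts upstream of the RefSeq start. No match to either motif was found in the windows of Oasl2, Ifitm3 and Irf7, which says only that these letters are not in those windows.

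Values are variance-stabilized expression (VST), a log2 scale on which a gene without reads sits near 2.14, so a difference of 1 approximates a 2-fold change at high levels and understates the change of genes near this floor. Levels of different genes were not compared, since VST values are not scaled by transcript length. Chd8 itself was lower in HET than in WT at every age, with log2 differences of -0.63 in embryos and, in adults from the youngest to the oldest, -0.67, -0.64 and -0.54, and no HET mouse reached the lowest WT mouse of its age. The cortical neuron markers Emx1, Tbr1, Neurod2 and Neurod6 were above the floor in all 8 groups. Reads can be shared between relatives: of all 50-base stretches of the longest transcript, 51.5% in Ifit3 occur also in Ifit3b (named I830012O16Rik in that annotation), 14.3% in H2-D1, 8.9% in H2-K1, 7.1% in Ifit1 and 10% in Ifitm3 occur in another gene, and none in B2m, Irf7, Bst2 or Oasl2. The values of these 5 genes are therefore uncertain to the extent that reads were split between relatives.

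**Figure D1:**
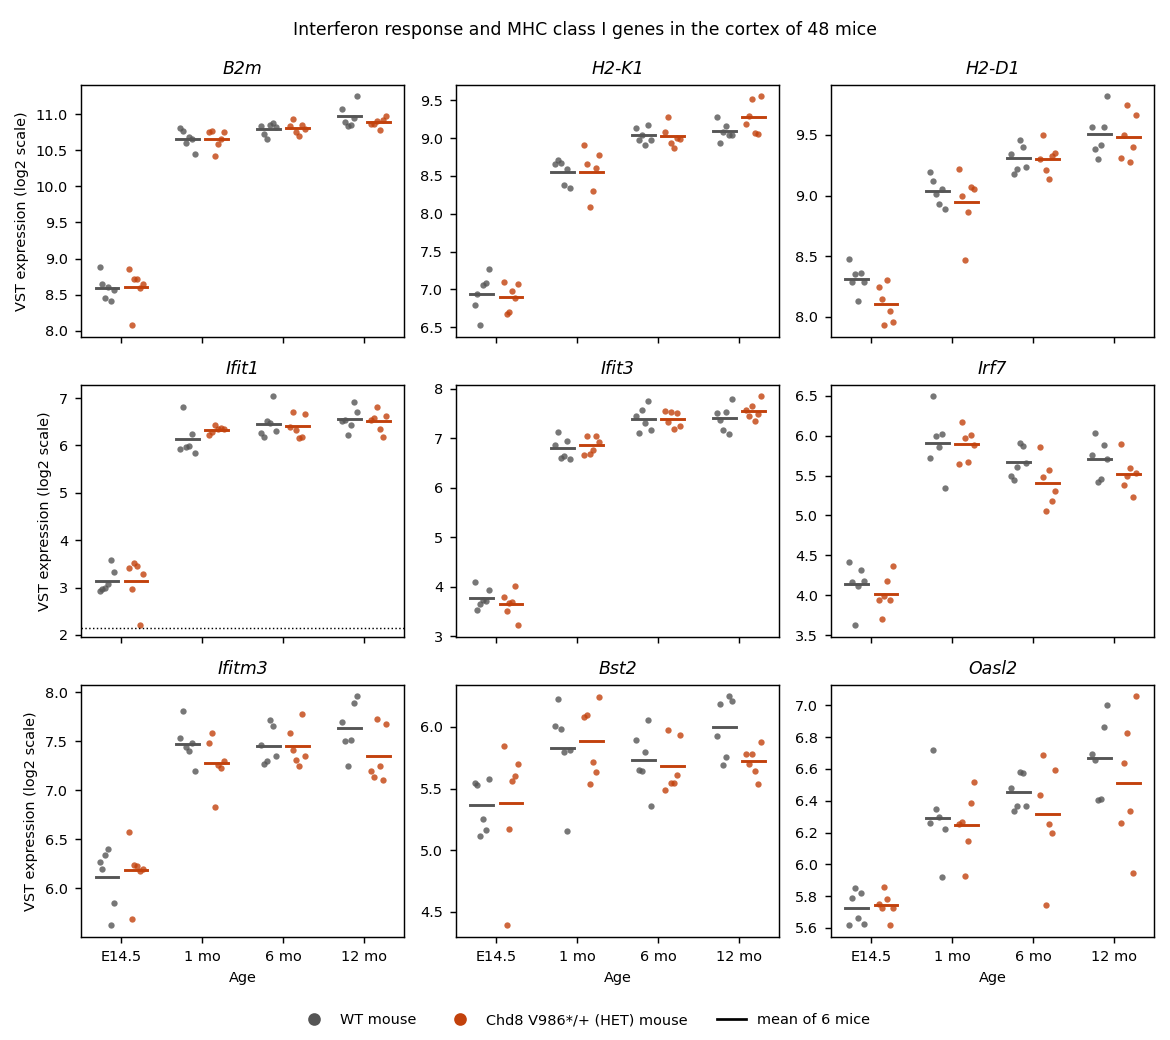
VST expression (log2 scale, y axis) of each of the 9 genes in every mouse by age (x axis), grey for WT and orange for HET, with a bar at the mean of 6 mice; the dotted line in the Ifit1 panel is the floor at 2.14. The step between E14.5 and 1 month exceeds the spread between mice in most panels, for example from 3.15 to 6.13 in WT for Ifit1, while the genotypes overlap at every age.

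Between E14.5 and 1 month all 9 genes rose in both genotypes. In WT 9 of 9 were called higher (limma, adjp below 0.1) and in HET 9 of 9, against 43.4% and 43.7% of all genes tested; 42.3% and 42.4% of all genes were called lower. This is a comparison in which most of the transcriptome moves, so the count is to be read against those shares. The median log2 difference of the 9 genes was 1.61 in WT and 1.65 in HET, against 0.02 in both for all genes tested. In 8 of the 9 genes every 1-month mouse was above every E14.5 mouse of its genotype, and Bst2 was the exception. In bulk tissue, fewer cells of a type and less RNA per cell cannot be told apart.

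After 1 month the genes parted. Between 1 and 6 months 3 of the 9 were called higher in WT (H2-K1, H2-D1 and Ifit3), none lower, against 12.3% of all genes higher and 12.3% lower. In HET 4 were called higher (B2m, H2-K1, H2-D1 and Ifit3) and Irf7 was called lower, against 14.0% and 12.8% of all genes. Between 6 and 12 months none of the 9 was called in WT, against 0.00% of all genes higher and 0.00579% lower, or in HET, against 1.07% and 2.36%. At an unadjusted p below 0.05, B2m and H2-D1 passed in WT and H2-K1 and H2-D1 in HET over that step, all higher at 12 months. Over the whole span from 1 to 12 months 6 of the 9 were called higher in WT (B2m, H2-K1, H2-D1, Ifit1, Ifit3 and Oasl2) and none lower, against 9.74% higher and 11.7% lower among all genes. In HET 4 were called higher (B2m, H2-K1, H2-D1 and Ifit3) and Irf7 lower, against 19.1% and 19.9%. The comparisons of 6 months with 1 month and of 12 months with 1 month share the 1-month mice. Ifitm3 and Bst2 were called in neither direction after 1 month in either genotype.

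**Figure D2:**
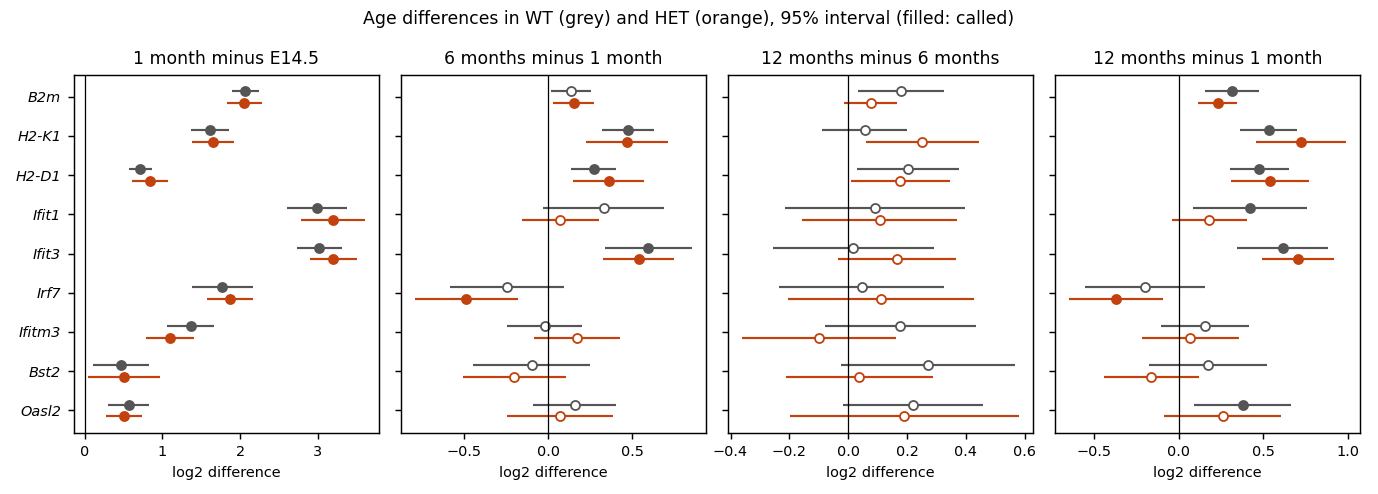
Log2 difference between ages (x axis, limma estimate with its 95% interval) for each gene (y axis) in WT (grey) and HET (orange), one panel per pair of ages, each with its own x scale; filled points passed adjp below 0.1. All points are filled for 1 month minus E14.5 and none for 12 months minus 6 months, and only Irf7 in HET is filled to the left of 0.

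The 3 MHC class I genes and Ifit3 were called higher at 12 months than at 1 month in both genotypes. B2m in WT ranged from 8.41 to 8.88 at E14.5 (median 8.58), from 10.46 to 10.81 at 1 month (median 10.67), from 10.66 to 10.87 at 6 months (median 10.83) and from 10.84 to 11.25 at 12 months (median 10.92). In HET the corresponding values were 8.07 to 8.86 (median 8.68), 10.42 to 10.76 (median 10.71), 10.70 to 10.93 (median 10.81) and 10.78 to 10.97 (median 10.89). All 12-month mice lay above all 1-month mice of their genotype, while neighbouring adult ages overlapped. The light chain thus rose by 2.07 in WT (SE 0.08, adjp 8.28e-13), a 4.19-fold step, and by 2.05 in HET (SE 0.11) from E14.5 to 1 month, and by 0.32 in WT (SE 0.08, adjp 0.0092) and 0.23 in HET (SE 0.06, adjp 0.00446) from 1 to 12 months. Its step from 1 to 6 months was 0.15 in HET (adjp 0.0711) and 0.14 in WT (adjp 0.109), on either side of the threshold. The HET call was lost in 6 of the 12 fits that left out 1 mouse (1-month mice 3, 4 and 5 and 6-month mice 1, 2 and 5; estimates from 0.11 to 0.18), and the WT value passed in 4 of 12 (without 1-month mouse 1 or 2, or 6-month mouse 2 or 3; estimates from 0.09 to 0.17).

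H2-K1, a heavy chain that presents peptides at the cell surface, ranged in WT from 6.53 to 7.27 at E14.5 (median 6.9959), from 8.34 to 8.71 at 1 month (median 8.62), from 8.91 to 9.17 at 6 months (median 9.01) and from 8.94 to 9.28 at 12 months (median 9.06). In HET it ranged from 6.68 to 7.10 (median 6.94), from 8.09 to 8.91 (median 8.63), from 8.86 to 9.28 (median 8.99) and from 9.05 to 9.55 (median 9.24). Every WT mouse of 6 or 12 months was above every WT mouse of 1 month. The rise from 1 to 6 months was 0.48 in WT (SE 0.07, adjp 0.000268) and 0.47 in HET (SE 0.12, adjp 0.00875), and that from 1 to 12 months was 0.53 in WT (SE 0.08, adjp 0.000281) and 0.72 in HET (SE 0.13, adjp 0.000358). From 6 to 12 months the differences of 0.06 in WT and 0.25 in HET did not pass (adjp 0.822 and 0.185).

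H2-D1, the other classical heavy chain, had the smallest embryonic step of the 3 class I genes, 0.72 in WT (SE 0.07) and 0.84 in HET (SE 0.11). Its WT mean was 8.32 ± 0.11 in embryos and then, with rising age, 9.03 ± 0.11, 9.31 ± 0.11 and 9.51 ± 0.18 (SD, n = 6). The HET means were 8.11 ± 0.15, 8.95 ± 0.26, 9.31 ± 0.13 and 9.48 ± 0.19 at the same ages. Between 1 and 12 months, H2-D1 rose by 0.47 in WT (SE 0.08, adjp 0.00105) and by 0.54 in HET (SE 0.11, adjp 0.00121), without overlap of the mice. Neighbouring adult ages overlapped, although the step from 1 to 6 months passed in WT (0.27, adjp 0.00644) and HET (0.36, adjp 0.0178).

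Ifit3 and Ifit1 had the largest steps of the 9 genes between E14.5 and 1 month. Ifit3 in WT ranged from 3.53 to 4.09 at E14.5 (median 3.73), from 6.59 to 7.13 at 1 month (median 6.75), from 7.10 to 7.74 at 6 months (median 7.38) and from 7.08 to 7.79 at 12 months (median 7.44). In HET it ranged from 3.22 to 4.01 (median 3.69), from 6.66 to 7.05 (median 6.85), from 7.19 to 7.55 (median 7.42) and from 7.35 to 7.84 (median 7.54). The HET mice of 6 and 12 months all lay above those of 1 month, whereas in WT a narrow overlap remained. The first step was 3.02 in WT (SE 0.14) and 3.20 in HET (SE 0.14), the rise from 1 to 6 months 0.60 in WT (SE 0.12, adjp 0.00278) and 0.54 in HET (SE 0.10, adjp 0.00121), and the rise from 1 to 12 months 0.61 in WT (SE 0.13, adjp 0.00381) and 0.70 in HET (SE 0.10, adjp 5.9e-05). Ifit3b, its near copy, rose over the same spans, by 0.72 in WT (adjp 0.00156) and 0.74 in HET (adjp 1.02e-05) from 1 to 12 months.

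Ifit1 was close to the floor in embryonic cortex, from 2.93 to 3.58 in WT (median 3.03) and from 2.20 to 3.52 in HET (median 3.35), so its step of 2.98 in WT (SE 0.18) and 3.19 in HET (SE 0.19) understates the change. At 1 month the WT mice ranged from 5.83 to 6.82 (median 5.98) and the HET mice from 6.23 to 6.43 (median 6.34). The 12-month mice spanned 6.22 to 6.91 in WT (median 6.52) and 6.18 to 6.81 in HET (median 6.56), overlapping the younger adults in both genotypes. The rise from 1 to 12 months passed in WT at 0.42 (SE 0.16, adjp 0.0868) but was lost in 9 of the 12 fits without 1 mouse (1-month mice 1, 3, 4, 5 and 6 and 12-month mice 1, 2, 5 and 6; estimates from 0.35 to 0.56), with no filter on low values (adjp 0.147) and without a trend in limma (adjp 0.112). In HET it was 0.18 (SE 0.10, adjp 0.204) and passed only without 12-month mouse 5 (0.25, adjp 0.0635). The WT difference between 1 and 6 months, 0.33 (adjp 0.199), passed without 1-month mouse 2, the highest of its group (0.47, adjp 0.0367). With that mouse left out, 5 rather than 3 of the 9 genes were called in this comparison.

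Oasl2 rose by less, 0.57 in WT (SE 0.12) and 0.51 in HET (SE 0.11) up to 1 month. Its WT means went from 5.73 ± 0.11 at E14.5 to 6.29 ± 0.26, 6.45 ± 0.11 and 6.67 ± 0.24 at 1, 6 and 12 months (SD, n = 6), and its HET means from 5.74 ± 0.08 to 6.25 ± 0.20, 6.32 ± 0.34 and 6.51 ± 0.41. Mice of the adult ages overlapped throughout. The WT rise of 0.38 from 1 to 12 months (SE 0.14, adjp 0.0709) was lost in 7 of 12 fits without 1 mouse (1-month mice 1, 4, 5 and 6 and 12-month mice 1, 5 and 6; estimates from 0.30 to 0.46), with no filter (adjp 0.113) and under the replicate block (adjp 0.1001). The HET value of 0.26 (adjp 0.243) passed only without 12-month mouse 5 (0.37, adjp 0.0685).

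Irf7 was the member that fell in adult cortex. In HET it ranged from 3.71 to 4.36 at E14.5 (median 3.97), from 5.65 to 6.18 at 1 month (median 5.93), from 5.06 to 5.86 at 6 months (median 5.39) and from 5.23 to 5.89 at 12 months (median 5.52). In WT it ranged from 3.62 to 4.42 (median 4.17), from 5.35 to 6.49 (median 5.93), from 5.44 to 5.91 (median 5.64) and from 5.42 to 6.03 (median 5.73). The adult ages overlapped in both genotypes. The step up to 1 month was 1.77 in WT (SE 0.18) and 1.87 in HET (SE 0.14). From 1 to 6 months Irf7 fell by 0.48 in HET (SE 0.14, adjp 0.0264), and the WT value was -0.24 (SE 0.16, adjp 0.326). From 1 to 12 months it fell by 0.37 in HET (SE 0.13, adjp 0.0388), and the WT value was -0.20 (SE 0.17, adjp 0.476). The WT values rested in part on WT 1-month mouse 2, the highest of its group, and without it they were -0.13 (adjp 0.602) and -0.08 (adjp 0.793), while without WT 1-month mouse 6 the 1 to 12 month value was -0.31 (adjp 0.213). Whether the genotypes differed in these steps was tested directly, and Irf7 was not called.

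The membrane proteins Ifitm3 and Bst2 were called only over the step from E14.5 to 1 month. Ifitm3 rose by 1.36 in WT (SE 0.14) and 1.09 in HET (SE 0.14). Its means then lay between 7.46 and 7.63 in WT and between 7.28 and 7.45 in HET. Bst2 rose by 0.47 in WT (SE 0.17, adjp 0.017) and 0.50 in HET (SE 0.22, adjp 0.0423), with overlapping mice. WT mice ranged from 5.11 to 5.58 at E14.5 and from 5.15 to 6.22 at 1 month, and HET mice from 4.39 to 5.85 and from 5.54 to 6.24. Without HET E14.5 mouse 2, the lowest of its group, the HET rise was 0.31 (adjp 0.0857). Quantile normalization moved the median of all genes in this step from 0.02 to -0.11 in both genotypes, and under it the Bst2 call was lost (0.17, adjp 0.378 in WT; 0.21, adjp 0.332 in HET), while the other 8 genes remained called.

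The comparison of genotypes asks whether loss of 1 Chd8 allele shifts these genes at any age. None of the 9 was called in HET versus WT at E14.5, 1 month, 6 months or 12 months with limma, where 0.00593%, 0.139%, 0.0927% and 0.0463% of all genes were called in either direction. These shares belong to this fit. With DESeq2 and a batch correction at the same threshold, the paper listed many more differentially expressed genes over all ages. At an unadjusted p below 0.05 with limma, H2-D1 at E14.5 and Bst2 at 12 months passed. With H2-D1, HET mice ranged from 7.93 to 8.30 (median 8.10) and WT mice from 8.13 to 8.47 (median 8.32), and the groups overlapped. The difference was -0.21 (95% interval -0.38 to -0.04, adjp 0.982). Bst2 at 12 months ranged from 5.54 to 5.88 in HET (median 5.74) and from 5.69 to 6.25 in WT (median 6.05), again with overlap, and differed by -0.28 (95% interval -0.54 to -0.02, adjp 0.393). The other 12-month values nearest to the threshold were Ifitm3, -0.29 (95% interval -0.58 to 0.0038, adjp 0.438), and H2-K1, 0.19 (95% interval -0.0058 to 0.38, adjp 0.444), which point in opposite directions.

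The intervals show what size of genotype difference these mice leave room for. For B2m they ran from -0.14 to 0.13 at 1 month, from -0.09 to 0.11 at 6 months and from -0.23 to 0.05 at 12 months. They were wider for Ifit1, from -0.10 to 0.50 at 1 month, and for Irf7, from -0.56 to 0.05 at 6 months. Embryos leave more room for B2m, with an SE of 0.12 at E14.5 against 0.07 at 1 month and 0.05 at 6 months. At E14.5 the SE was 0.22 for Ifit1 and 0.21 for Bst2. A value that misses the threshold does not show that the genotypes are alike. The change of the genotype difference with age was called for none of the 9 genes between 1 month and E14.5 or 6 months and 1 month, where 0.00% of all genes were called in each, between 12 and 6 months (0.0578%) or between 12 months and 1 month (0.00578%). None of the 9 had an unadjusted p below 0.05 in these 4 comparisons. No gene of the 4 wider interferon and class I lists described below was called between genotypes at any age.

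**Figure D3:**
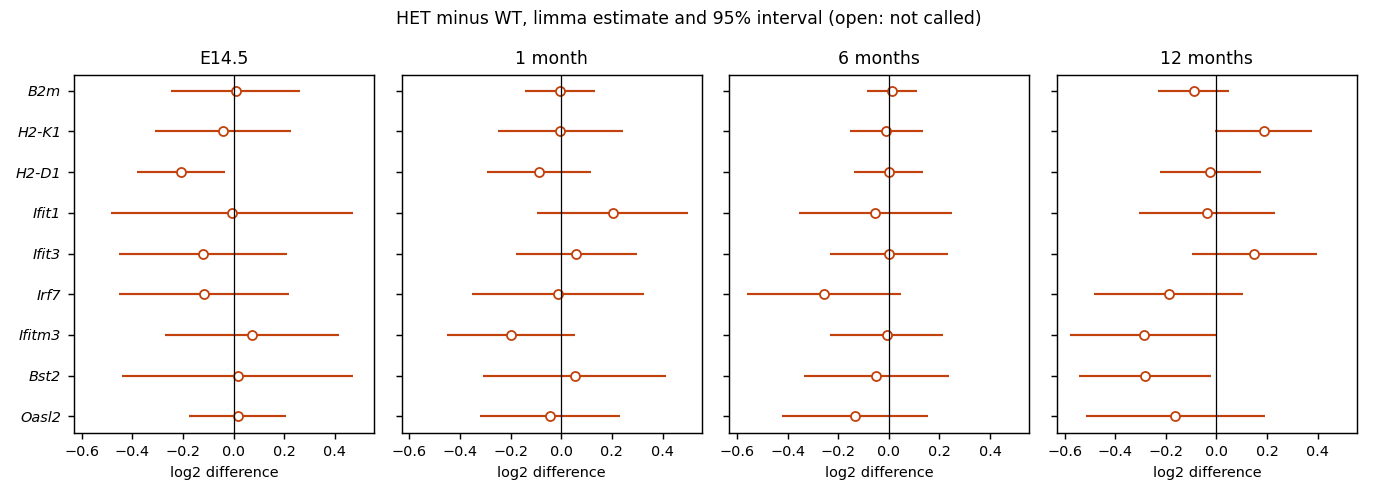
HET minus WT log2 difference (x axis, limma estimate with its 95% interval) for each of the 9 genes (y axis) at the 4 ages; open points did not pass adjp below 0.1. All points are open, and the intervals leave out 0 for H2-D1 at E14.5 and Bst2 at 12 months.

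Mice of a group differed from each other in several of these genes at once. WT 1-month mouse 2 was the highest of its group in 7 of the 9 genes and above the group mean in all 9, with Ifit1 at 6.82 and Irf7 at 6.49, whereas WT 1-month mouse 6 was the lowest in 7. WT 12-month mouse 3 was the lowest in 7, and HET 12-month mouse 6 was above its group mean in all 9 and highest in 5, with H2-K1 at 9.55 and Oasl2 at 7.06. HET 1-month mouse 3 was the lowest in 6 genes, among them H2-K1 at 8.09, H2-D1 at 8.47 and Ifitm3 at 6.82, yet was the highest in Ifit1. HET E14.5 mouse 2 was the lowest in 5, with B2m at 8.07 and Bst2 at 4.39.

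Deviations from the group mean were positively correlated across the 48 mice in 36 of the 36 gene pairs, with a median Pearson r of 0.37, from 0.08 (H2-D1 and Irf7) to 0.70 (B2m and Ifitm3). These r values are a description; all genes of a mouse share its library, depth and dissection. Ifit1 and Ifit3, which each hold 2 copies of the response element core, had an r of 0.16. That value includes HET E14.5 mouse 5, in which Ifit1 was near the floor (2.20). The deviations of this mouse were -3.44 SD for Ifit1 and 1.77 SD for Ifit3, and r without it was not computed. The spread between mice of a group, pooled over groups, was smallest for B2m (SD 0.15) and largest for Bst2 (SD 0.30) and Ifit1 (SD 0.30).

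**Figure D4:**
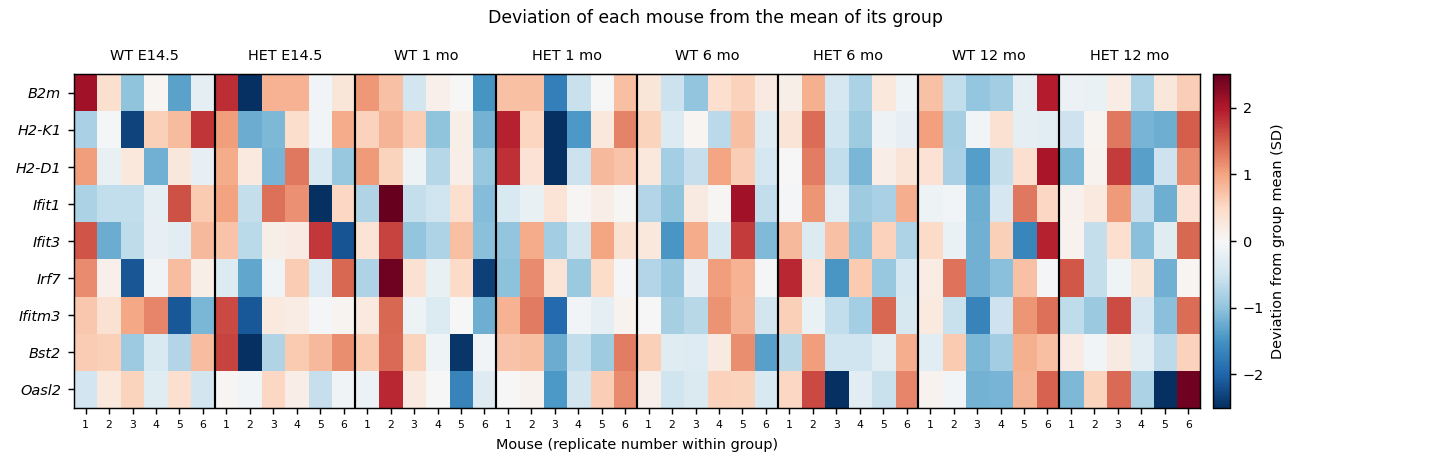
Deviation of each mouse (columns, by group and replicate number) from the mean of its group for each of the 9 genes (lines of the map), in SD of that gene's deviations over 48 mice; red is above and blue below the group mean. WT 1-month mouse 2 is red in all 9 genes, WT 12-month mouse 3 is blue in all 9, and HET 1-month mouse 3 is red in 2.

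Some of these mice also had the lowest or the highest mean of their group in a marker list. HET E14.5 mouse 2 had the lowest mean of its group for 5 meningeal fibroblast markers (9.30, the others 10.55 or higher) and for 5 border macrophage markers (5.70, the others 7.02 or higher). HET 1-month mouse 3 had the lowest mean of its group for 9 endothelial markers (8.51, the others 9.02 or higher), for the meningeal fibroblast markers (7.56, the others 8.10 or higher) and for the border macrophage markers (5.13, the others 5.41 or higher). HET 12-month mouse 6 had a mean of 7.02 for 7 MHC class II genes, above the other mice of its group, which reached 6.21 at most. WT 1-month mouse 2 had the lowest microglial mean of its group, 9.46 against 9.53 or higher, while it was highest in 7 of the 9 genes. The part of these cells in the values of the 9 genes was not tested. Without HET 1-month mouse 3, B2m no longer passed between 1 and 6 months in HET (0.11, adjp 0.136), and H2-K1, H2-D1, Ifit3 and Irf7 did. Without HET E14.5 mouse 2, all 9 genes were still called in the step to 1 month in HET.

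Over the ages, the same marker lists moved as follows. From E14.5 to 1 month 13 of 13 microglial markers were called higher in both genotypes (median log2 difference 2.67 in WT and 2.57 in HET), with mouse means from 6.66 to 7.18 over all E14.5 mice and from 9.34 to 9.73 at 1 month. All 6 astrocyte markers and all 7 MHC class II genes were called higher too, and 5 of 5 meningeal fibroblast markers in WT and 4 of 5 in HET were called lower. Among all genes 43.4% in WT and 43.7% in HET were called higher over this step, and 42.3% and 42.4% lower. The median mouse mean of the 9 endothelial markers went from 7.74 to 9.19 in WT and from 7.75 to 9.26 in HET over this step. The single endothelial markers were split in direction. WT means of Ly6c1 (3.93 to 9.40), Ly6a (2.96 to 8.59), Slco1a4 (6.13 to 10.48) and Flt1 (8.83 to 10.35) went up. Those of Cdh5 (10.52 to 8.81), Tie1 (9.21 to 8.04), Pecam1 (9.59 to 8.94), Cldn5 (9.97 to 9.68) and Esam (8.54 to 8.49) went down. The median mouse mean of the 5 border macrophage markers went from 6.86 to 6.13 in WT and from 7.02 to 5.76 in HET over the same step. At 12 months the endothelial medians were 9.33 in WT and 9.13 in HET, and the border macrophage medians 5.53 and 5.25. The part of these cells in the embryonic step was not tested. Between 1 and 12 months, over which the class I genes rose, 2 microglial markers were called higher and 3 lower in WT, and 3 higher and 2 lower in HET, and the mouse means lay between 9.33 and 9.80 in adults. MHC class II rose in 2 of 7 genes in WT and 5 of 7 in HET over that span, in which 9.74% of all genes were called higher and 11.7% lower in WT, and 19.1% and 19.9% in HET. The microglial counts, out of 13 markers, are to be read against these shares. The T cell markers Cd3d and Cd3g were near the floor in most groups (Cd3d in all 8, Cd3g in 6, all but the 12-month groups). Of the 7 T cell markers, 4 were near the floor in WT at 1 month and 1 at 12 months, and 4 and 2 in HET. Cd4 and Lck were near it in no group, with 1-month means of 6.88 and 4.94 in WT and 7.55 and 5.11 in HET. The T cell list mean ranged from 2.89 to 4.04 over all 48 mice, and the part of T cells in the adult rise was not tested.

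The rest of the pathway was followed in 4 wider lists, 107 genes in all. Of 21 tested genes of class I antigen presentation other than the members, 15 were called higher and 4 lower from E14.5 to 1 month in WT, and 15 and 4 in HET, where 43.4% and 43.7% of all genes were called higher and 42.3% and 42.4% lower. The median log2 difference of the list was 0.74 in WT and 0.79 in HET, against 0.02 in both for all genes. Tap2, a subunit of the peptide transporter, rose by 2.60 in WT and 2.71 in HET, the immunoproteasome subunit Psmb10 by 2.11 in both, and the non-classical class I gene H2-T23 by 1.92 and 1.78. From 1 to 12 months 12 of 22 were called higher and none lower in WT (median log2 difference 0.50), and 16 higher and 4 lower in HET (median 0.55), where the median of all genes tested was within 0.01 of 0. The shares called among all genes were 9.74% higher and 11.7% lower in WT and 19.1% and 19.9% in HET, so the 4 lower in HET are close to the share of all genes. In WT the largest were H2-T22 at 0.92 (adjp 1.03e-05), Tap1 at 0.84 (adjp 9.73e-05) and H2-T23 at 0.73 (adjp 0.000366). In HET they were Psmb9, an immunoproteasome subunit, at 1.03 (adjp 4.52e-05), Tap1 at 0.96 (adjp 0.00011) and H2-Q7 at 0.91 (adjp 0.0273). H2-Q7 was close to the floor at 1 month, with a HET mean of 3.09 against 2.14. Stretches that H2-Q7 shares with other genes were not examined. Of the 4 that fell in HET, 3 are the general folding proteins of the endoplasmic reticulum Calr, Canx and Pdia3. They serve many other glycoproteins and were named after their values were seen. In HET Pdia3 fell by 0.48 and Calr by 0.53. From 1 to 12 months, the span of these HET falls, none of the 3 was called lower in WT. Over the shorter span from 1 to 6 months their WT means went down, from 13.53 to 13.15 (Calr), 13.62 to 13.49 (Canx) and 12.60 to 12.39 (Pdia3). From 1 to 6 months the counts were 10 higher and 3 lower in WT and 11 and 2 in HET, against 12.3% and 12.3% of all genes in WT and 14.0% and 12.8% in HET. From 6 to 12 months they were 0 and 0 in WT (all genes 0.00% and 0.00579%), and 4 higher and 1 lower in HET (all genes 1.07% and 2.36%), led by Psmb9 at 0.66 (adjp 0.0199).

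The second list held 55 other interferon-stimulated genes. From E14.5 to 1 month 43 of 53 tested were called higher and 5 lower in WT, and 42 and 5 in HET, against 43.4% higher and 42.3% lower among all genes in WT and 43.7% and 42.4% in HET. The step was led in WT by Ifi27 at 3.45, Ifit3b at 3.32 and the nuclear body protein Sp100 at 2.90. By 12 months, compared with 1 month, 13 of 54 were called higher and 3 lower in WT (median 0.18), and 18 of 52 higher and 3 lower in HET (median 0.18), where 9.74% and 19.1% of all genes were called higher and 11.7% and 19.9% lower. The apoptosis factor Xaf1 rose by 0.87 in WT (adjp 0.000103), and the guanylate-binding protein genes Gbp2 and Gbp6 rose by 0.89 and 0.86 in HET (adjp 0.00102 and 0.0024). Ifitm1, a relative of Ifitm3, fell by 0.72 in WT (adjp 0.00381).

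The receptors and signalling genes were called in both directions. From E14.5 to 1 month 7 of 16 were called higher and 6 lower in WT, and 7 and 7 in HET, about the shares of all genes (43.4% and 42.3% in WT, 43.7% and 42.4% in HET), so these counts are no result about the list. Usp18, an inhibitor of the receptor that interferon itself induces, rose by 2.02 in WT and 1.66 in HET. Ifnar1, a receptor chain, fell by 1.06 in HET, and its WT mean also went down, from 11.61 at E14.5 to 10.68 at 1 month. From 1 to 12 months 3 were called higher and 2 lower in WT (9.74% and 11.7% of all genes), and 3 and 5 in HET (19.1% and 19.9%). Irf1, a transcription factor of class I genes, rose by 0.41 in WT (adjp 0.00573) and 0.48 in HET (adjp 0.000972). Among 14 sensors of foreign or misplaced nucleic acid, 10 were called higher and 3 lower from E14.5 to 1 month in WT, and 9 and 3 in HET, against 43.4% higher and 42.3% lower among all genes in WT and 43.7% and 42.4% in HET. The median log2 difference of the list was 0.64 in WT and 0.51 in HET, and the largest rise was that of Tlr3 at 2.88 in WT and 2.57 in HET. From 1 to 12 months 1 was called higher and 2 lower in WT, against 9.74% and 11.7% of all genes, and 5 and 2 in HET, against 19.1% and 19.9%. The endosomal RNA receptor Tlr7 fell by 0.33 in WT (adjp 0.0764) and 0.84 in HET (adjp 3.23e-05), and the cytosolic RNA sensor Ifih1 rose by 0.37 in WT (adjp 0.00583) and 0.46 in HET (adjp 0.000976).

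**Figure D5:**
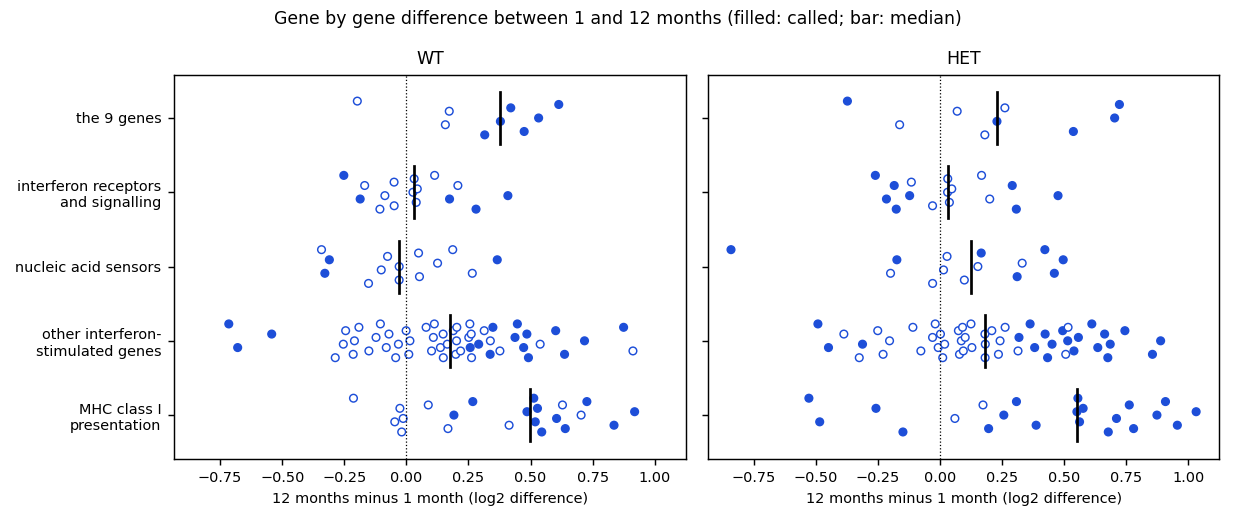
Log2 difference between 12 months and 1 month (x axis) for each tested gene of the 9 members and the 4 wider lists (y axis; vertical position within a list has no meaning) in WT (left) and HET (right); filled points passed adjp below 0.1 and bars are list medians. The class I presentation genes have medians of 0.50 and 0.55, against 0.03 in both genotypes for receptors and signalling.

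The genes whose deviations across the 48 mice were most like the average of the 9 genes were ranked, out of 17311. Among the 10 highest were Fbln5 (r = 0.81), Spp1 (0.76), F13a1 (0.76), Aldh1a2 (0.73), Pcolce (0.71), Usp18 (0.71), Igfbp7 (0.71), Cd74 (0.70) and Anxa2 (0.68). Usp18 belongs to the signalling list, Cd74, the invariant chain of MHC class II, to the class II list, and F13a1 to the border macrophage markers. Fbln5 and Pcolce encode proteins of elastic and collagen matrix, and Aldh1a2 a retinoic acid synthesizing enzyme known from meninges. Between E14.5 and 1 month these genes moved in both directions. WT means went down for F13a1 (8.47 to 6.63), Anxa2 (9.99 to 7.98) and Aldh1a2 (7.69 to 7.39). WT means went up for Cd74 (3.98 to 6.39), Usp18 (3.13 to 5.15), Spp1 (6.13 to 7.73) and Fbln5 (6.39 to 7.35). Pcolce (6.86 to 7.01) and Igfbp7 (8.92 to 9.17) went up by less.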

How the data were processed

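PolyA RNA was sequenced from dissected cortex of 48 mice (8 groups of 6); the methods name a KAPA stranded kit and the labels a TruSeq kit. The authors aligned reads to mm9 with STAR 2.5.2b, quantified transcripts with Salmon 0.11.3 and made the values with DESeq2 1.22.2, correcting for batch effects. The deposited values are VST expression on a log2 scale held in a single table (24444 genes). Its most frequent value, 2.1433 (15.7% of values), was taken as the floor. Over all samples, the means of replicates 1 to 3 and of 4 to 6 matched gene by gene (largest gap 3.20e-14), which shows that a batch-like offset between the replicate sets was taken out before deposit, and residual degrees of freedom are slightly overstated. Counts were not analysed here, so the depth behind single genes is unknown, no counting intervals are given, and precision is the spread between 6 mice. DESeq2 and edgeR were not run.

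Groups came from the sample titles, and replicates are separate mice. Groups were compared with limma 3.58.1 in R 4.3.3 with an intensity trend, on genes with a mean at least 0.5 above the floor over the samples fitted, adjusted by the Benjamini-Hochberg method over all genes tested and called at adjp below 0.1; each pair of groups was fitted alone, and differences of genotype effects in 1 fit of all 48 samples. The fits were tested on simulated data. The 9 genes and all gene lists were chosen with earlier results of these data known. Genes named were the 9, up to 3 called genes per list with the largest change, the 10 genes most like the 9, and Chd8; exceptions are stated, and some genes and a motif that these choices include are not reported here. Replicate numbers were not treated as pairs. Alternatives were blocking on replicate number, a joint fit of the whole table (for differences of genotype effects, only the 24 samples in the contrast), the replicate set as covariate, no filter, a filter at 1.5, no trend, robust variances, quantile normalization, median centring, adjp below 0.05 and leaving out each mouse. The 50-base stretches came from GENCODE M1 protein-coding transcripts. Python 3.11.15, numpy 2.4.6, pandas 2.3.3 and matplotlib 3.10.9 were used.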

Additional observations from a re-analysis of the deposited data

Results flagged for a closer look

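The 9 genes were examined in 8 groups each, 72 sets of 6 mice, for a mouse far from the others of its group. Chance alone marks about 1 in 20 such sets, and 1 of 72 was marked. It was B2m in HET E14.5 mouse 2, at 8.07 against 8.59 in the nearest mouse, a gap of 0.66 of the whole range of the group. The same mouse was the lowest of its group in H2-K1, Irf7, Ifitm3 and Bst2.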

How the results depend on the processing

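The number of the 9 genes called stayed within 1.5 times its value in all 160 recomputations with another setting and in 239 that left out 1 mouse; the 1 exception was 6 months versus 1 month in WT, from 3 to 5. Calls of single genes that depended on a setting are given with those genes: Bst2 under quantile normalization, and B2m, Ifit1 and Oasl2 in adult cortex. Ifit1 and Oasl2 from 1 to 12 months in WT, and B2m from 1 to 6 months in HET, also failed at adjp below 0.05, and B2m in HET failed with no filter (adjp 0.119), without a trend (adjp 0.126) and in a joint fit of the 48 samples (adjp 0.238). B2m from 1 to 6 months in WT passed under quantile normalization (adjp 0.0815) and median centring (adjp 0.0908). The cause was not tested.

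Signs turned only for differences near 0 that were not called. Under quantile normalization these were Ifit1 at E14.5 (0.0771), H2-K1 (0.0087) and Irf7 (0.0251) at 1 month and Ifit3 at 6 months (-0.0012) between genotypes, Ifit3 from 6 to 12 months in WT (-0.0036) and Bst2 in HET (-0.0208). Under median centring they were B2m (0.0069) and H2-K1 (0.0075) at 1 month and Ifit3 at 6 months (-0.0013) between genotypes. Without 1 mouse at a time, genotype differences at E14.5 ranged from -0.0429 to 0.1132 (B2m), -0.0783 to 0.2135 (Bst2), -0.1264 to 0.0227 (H2-K1), -0.0818 to 0.1813 (Ifit1), -0.0274 to 0.1698 (Ifitm3) and -0.0074 to 0.0413 (Oasl2). At 1 month they ranged from -0.0455 to 0.0426 (B2m), -0.0819 to 0.1324 (Bst2), -0.1427 to 0.0080 (H2-D1), -0.0741 to 0.0885 (H2-K1), -0.1264 to 0.1030 (Irf7) and -0.1194 to 0.0401 (Oasl2). At 6 months they ranged from -0.0138 to 0.0351 (B2m), -0.1248 to 0.0154 (Bst2), -0.0388 to 0.0343 (H2-D1), -0.0607 to 0.0227 (H2-K1), -0.1131 to 0.0616 (Ifit1), -0.0562 to 0.0717 (Ifit3) and -0.0760 to 0.0437 (Ifitm3), and at 12 months from -0.0774 to 0.0370 (H2-D1) and -0.1045 to 0.0351 (Ifit1). Among the ages the ranges that crossed 0 were Ifit3 (-0.0592 to 0.0877) and Irf7 (-0.0193 to 0.1034) from 6 to 12 months in WT, Bst2 over that step in HET (-0.0003 to 0.0957), Ifitm3 from 1 to 6 months in WT (-0.0774 to 0.0460) and from 1 to 12 months in HET (-0.0214 to 0.1298), and Oasl2 from 1 to 6 months in HET (-0.0038 to 0.1852).

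With the replicate number as a block, 0 of the 9 genes were called between genotypes at each age, 4 rather than 3 from 1 to 6 months in WT (B2m, adjp 0.0773) and 5 rather than 6 from 1 to 12 months in WT (without Oasl2). Over all genes the block moved the genotype calls from 1 to 2 at E14.5, 24 to 13 at 1 month, 16 to 30 at 6 months and 8 to 2 at 12 months. Mean correlations of same-numbered samples were 0.23, 0.018, 0.045 and -0.034 at these ages, and other numbers averaged -0.045 at E14.5. The latter value is no separate contrast, since centring on the group means largely fixes it once the same-number mean is given. There 4 of 6 pairs were over 0.1 (highest 0.578) and 3 of 6 were best matched by their own number, a hint of pairing in embryos that comes from the data and not from the labels. In no comparison were all 6 pairs over 0.1, so the numbers were not treated as pairs.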
